A study of Mus musculus with 16 samples.

Results

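Complement is a cascade of plasma proteins that marks and lyses target cells. Its alternative and terminal arms were followed in mouse kidney through 7 genes, Cfb, Cfp and Cfi of the alternative pathway and Hc, C6, C7 and C8a of the terminal pathway. These genes were picked by symbol from a deposited matrix of 20525 genes, and all 7 were present. RNA came from 30 µm frozen kidney sections of mice 8 weeks old, on a background that the labels spell C56BL/6. The mice were WT or C3-/-, a genotype that lacks complement component C3 by its label. Each genotype was given glycerol, 7.5 ml/kg of a 50% solution injected into a thigh muscle to break down skeletal muscle (rhabdomyolysis) and so injure the kidney, or PBS. This made 4 groups of 4 libraries, named below by genotype and injection. The labels give no sex, no time between injection and sampling and no statement that the libraries of a group came from separate mice, so a p-value here measures the spread between samples and that spread may be technical.

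In the alternative pathway, C3b on a surface binds factor B (Cfb), whose cleavage forms the enzyme that cleaves more C3. Properdin (Cfp) stabilises that enzyme, and factor I (Cfi) is the protease that inactivates C3b. In the terminal pathway, cleaved C5 (encoded by Hc in the mouse) binds C6 and then C7, and C8 and C9 complete a pore known as the membrane attack complex. The liver makes most circulating complement, and kidney cells are known to make part of it locally.

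The differences that passed the test with no overlap between groups were in C8a and C7. C8a, the alpha chain of C8, fell after glycerol in WT kidney from 586 ± 39.2 to 103 ± 71.8 normalized counts (SD, n = 4 each). After glycerol it was higher in C3-/- than in WT kidney, at 1270 ± 1040 (SD, n = 4). C7 was lower in C3-/- than in WT kidney after PBS (22.9 ± 7.09 against 164 ± 39.5) and after glycerol (70.9 ± 27.9 against 189 ± 32.9), and it rose after glycerol in C3-/- kidney. Hc, which encodes C5, was called higher after glycerol in WT kidney, from values near 0 in most PBS libraries. Its values in the 2 groups overlapped, and the call was lost when any of several single libraries was left out. Cfb, Cfp and Cfi passed no comparison in the fit of the 4 groups without covariates, and each of them passed in some of the other fits given below. C6 was too low to enter the test.

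These calls come from limma on log2(normalized count + 1), fitted over 18035 genes with Benjamini-Hochberg adjusted p-values and a threshold of 0.05, and 6 of the 7 genes entered it. In WT kidney, glycerol against PBS called 2 of the 6, where 25.9% of all tested genes were called (12.5% higher and 13.3% lower). The same contrast in C3-/- kidney called 1 of the 6, higher, against 5.63% of all genes (3.68% higher). Between the genotypes after glycerol 2 of the 6 were called, where 11.2% of all genes were (6.38% higher and 4.85% lower in C3-/-). After PBS 1 of the 6 was called, lower, where 2.23% of all genes were (1.19% lower in C3-/-). With only 6 genes, nothing particular to them is read from these counts. The contrasts share libraries, since each group enters 2 of the 4 comparisons, so their values are given side by side and not as separate evidence.

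The counts moved with the libraries and the fit used. Within the 13 libraries called list 1 below, 4, 2, 3 and 1 of the 6 were called in these 4 comparisons, in that order, where 55.6%, 23%, 30.1% and 19.3% of all genes were. With list and Y-linked transcripts as covariates the members called were again 4, 2, 3 and 1, and the shares of all genes were 49.3%, 18.8%, 33.6% and 3.48%. Fitting each comparison on its own 2 groups called 2, 0, 0 and 3 members, with 24.7%, 1.71%, 1.65% and 25.6% of all genes. The fit of all groups shares 1 spread per gene over the 4 groups, whose own spreads differed. The SE of the C8a genotype difference was 0.57 in that fit. It was 0.08 in the PBS groups alone and 0.75 in the glycerol groups alone.

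Several properties of the libraries differ within or between the groups. Their summed normalized counts ran from 25810000 to 38390000, and between 190 and 982 genes were listed at 0 in each library but WT glycerol replicate 4, where 3374 were. The sample descriptions end in numbers that run from 1 to 13 without repeats in 13 libraries (list 1 here). The numbers 3, 4 and 5 occur a second time, on WT glycerol replicate 4 and on replicates 1 and 3 of C3-/- glycerol (list 2 here), and no label says what they stand for. The list 2 libraries had the highest summed counts, 35810000 to 38390000 against at most 34010000 in list 1. They also had the most genes at 0, 750 to 3374 against at most 540 in list 1. Y-linked Ddx3y was above 100 normalized counts in all WT libraries, in C3-/- PBS replicate 4 and in C3-/- glycerol replicates 3 and 4. It was at most 1.118 in the other 5 C3-/- libraries, where Xist of the X chromosome was between 16100 and 35410. In all libraries with Y-linked transcripts Xist was at most 104.8. No WT library lacked Y-linked transcripts, so genotype and what these transcripts mark cannot be fully told apart in a genotype comparison. Libraries labelled C3-/- did not have less C3 (846 ± 236 against 398 ± 61.4 normalized counts after PBS, SD, n = 4 each). No label says which part of the gene is altered, and every genotype comparison rests on the labels. The tissue label was met by its markers, with Umod of the thick ascending limb between 19330 and 194500 and Nphs1 of podocytes between 593.5 and 1217 normalized counts.

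**Figure D1:**
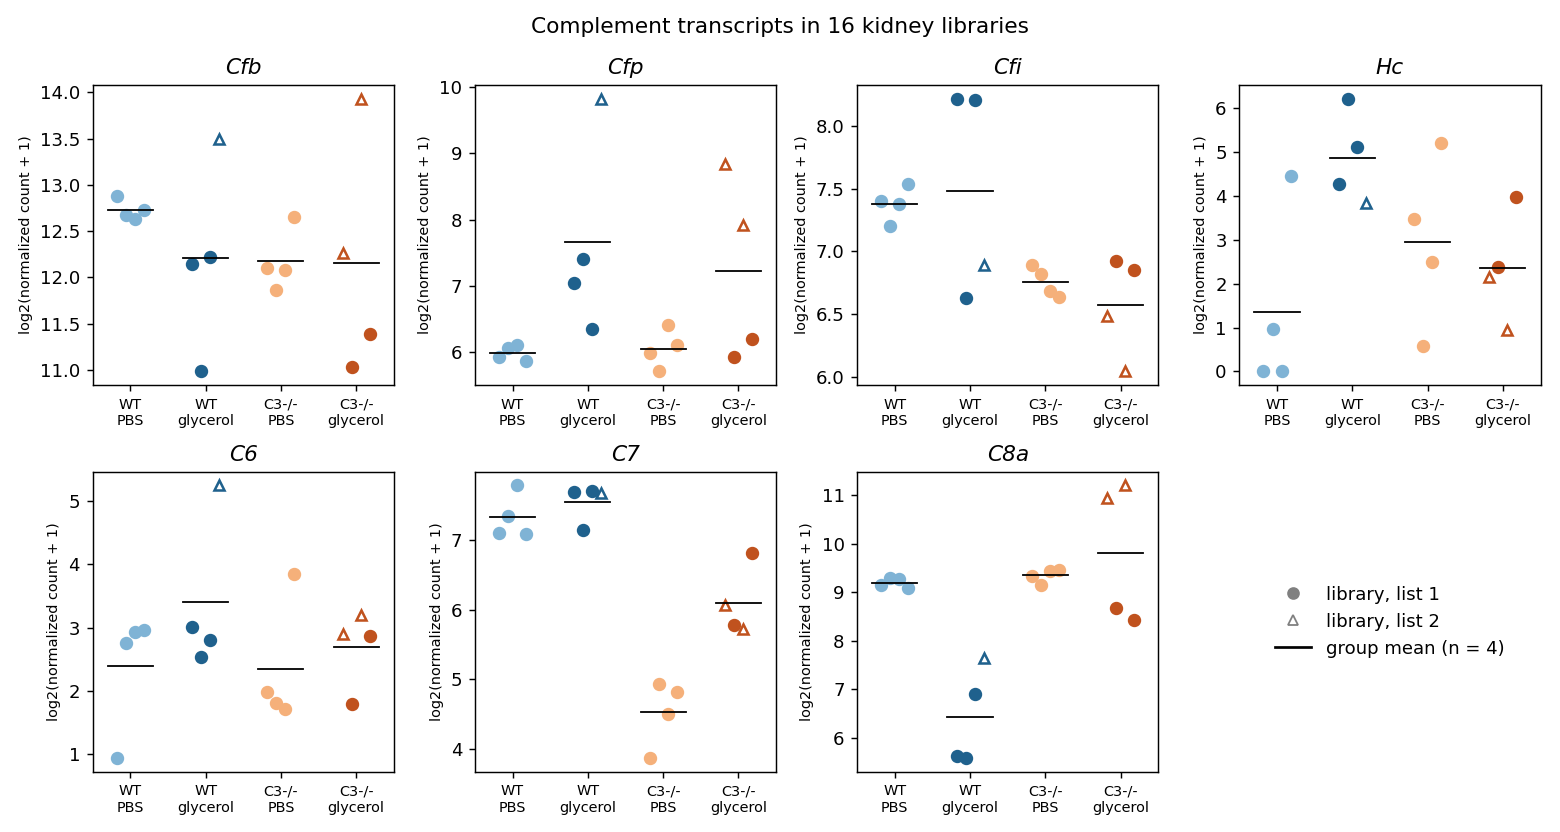
Level of each of the 7 genes in each library, as log2(normalized count + 1) on the vertical axis, by group on the horizontal axis; filled circles are list 1 libraries, open triangles are list 2 libraries and black lines are group means (n = 4). C7 in every C3-/- library lies below every WT library, and C8a in every WT glycerol library lies below all the others.

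Levels of different genes can be compared only per length of exon, and on that scale Cfb was the highest of the 7 in each group mean. In WT PBS kidney Cfb stood at 2410 ± 184 normalized counts per kb of exon (SD, n = 4), C8a at 161 ± 10.8 and Cfi at 74.9 ± 7.01. C7 followed at 61.1 ± 14.8 normalized counts per kb, Cfp at 36.1 ± 2.92, C6 at 1.41 ± 0.778 and Hc at 0.866 ± 1.63. In that order the library ranges of Cfi (66 to 83.1) and C7 (50.6 to 82.2) overlapped, as did those of C6 and Hc, and the other neighbours did not overlap. In WT glycerol kidney C8a was at 28.4 ± 19.7 normalized counts per kb and stood in place 5 of the 7, and its range overlapped those of C7, Cfi and Cfp above it. In C3-/- PBS kidney C7 was at 8.57 ± 2.65 normalized counts per kb, below the whole range of Cfp above it (29.5 to 48.1). In C3-/- glycerol kidney C7 was at 26.5 ± 10.4 and C8a at 349 ± 286 normalized counts per kb.

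**Figure D2:**
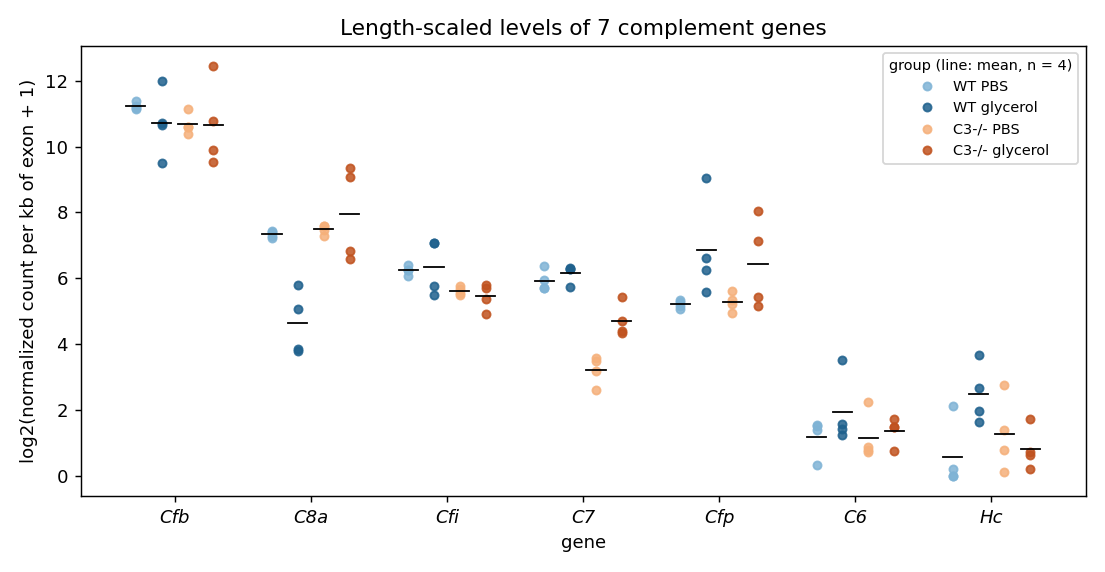
Length-scaled level of each gene in each library, as log2(normalized count per kb of exon + 1) on the vertical axis, with the genes on the horizontal axis and the groups by colour. Cfb is the highest gene of each group, and C6 and Hc lie lowest, at group means of at most 5.53 normalized counts per kb.

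Factor B carries the catalytic site of the alternative pathway enzyme. Cfb (ENSMUSG00000090231) lies on the minus strand of GRCm38 chromosome 17, 34856374 to 34862518, where a predicted gene of the same strand, Gm20547, overlaps it. That gene was listed at 0 to 31.8 normalized counts, and how the counting treated strand and overlaps is unknown here. Cfb had 7540.5, 6549.3, 6354.7 and 6794.3 normalized counts in WT PBS replicates 1 to 4 and 4539.4, 2025, 4774.1 and 11539 in WT glycerol. The C3-/- PBS libraries had 4397.9, 3729, 4321.8 and 6436.9 normalized counts, and those of C3-/- glycerol 4899.5, 2086.9, 15630.6 and 2683.2. The glycerol values lay on both sides of the PBS values in both genotypes, and the highest of each came from list 2.

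Over all libraries the log2 difference of Cfb between glycerol and PBS was -0.52 ± 0.54 (SE) in WT (limma adjusted p = 0.505) and -0.02 ± 0.54 in C3-/- kidney (limma adjusted p = 0.983). Within list 1, the 3 WT glycerol libraries and the 2 C3-/- glycerol libraries lay below every PBS library of their genotype. The share of all genes so separated was not computed for these smaller groups, where separation is more common. There the log2 difference of Cfb was -0.95 ± 0.26 in WT (limma adjusted p = 0.00857) and -0.97 ± 0.30 in C3-/- kidney (limma adjusted p = 0.035), where 55.6% and 23% of all genes were called. With list and Y-linked transcripts as covariates over the 16 libraries Cfb also passed, at -0.97 in WT (limma adjusted p = 0.00527) and -1.14 in C3-/- kidney (limma adjusted p = 0.0125). Over the alternatives tried, the adjusted p of Cfb ran from 0.00527 to 0.9 in WT and from 0.0125 to 0.984 in C3-/- kidney. Between genotypes the log2 difference of Cfb (C3-/- minus WT) was -0.06 after glycerol and -0.56 after PBS, and neither passed the test (limma adjusted p = 0.963 and 0.991). Fitted on the 2 PBS groups alone, the PBS difference of Cfb had a limma adjusted p of 0.0224, in a fit that called 25.6% of all genes.

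Properdin is made by neutrophils, monocytes and macrophages. Cfp (ENSMUSG00000001128) lies on the minus strand of the X chromosome, 20925454 to 20931555. It had 60, 66, 67.8 and 57 normalized counts in WT PBS replicates 1 to 4 and 131.4, 168.9, 80.6 and 908.6 in WT glycerol. Among C3-/- libraries Cfp had, after PBS, 62.3, 51.2, 83.5 and 67.8 normalized counts and, after glycerol, 459.4, 59.7, 241.5 and 72.5. Each WT glycerol value of Cfp lay above each WT PBS value, as was so for 18.2% of tested genes, whereas the 2 list 1 libraries of C3-/- glycerol lay inside the C3-/- PBS range and the 2 of list 2 lay above it.

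Cfp did not pass the test after glycerol in WT (log2 difference 1.67 ± 0.68 SE, limma adjusted p = 0.0829) or in C3-/- kidney (1.17 ± 0.68, limma adjusted p = 0.274). Within list 1 the WT difference of Cfp was 0.95 ± 0.23 with a limma adjusted p of 0.00408, with the covariates it was 1.03 with 0.00489, and without WT glycerol replicate 3 it was 2.11 with 0.0371. Over the alternatives tried that p ran from 0.00408 to 0.228. Between genotypes after glycerol the log2 difference of Cfp (C3-/- minus WT) was -0.44 ± 0.68 (limma adjusted p = 0.745), with -0.87 within list 1 (limma adjusted p = 0.032) and -1.16 with the covariates (limma adjusted p = 0.00938, range over the alternatives 0.00938 to 0.998). After PBS that difference was 0.06 (limma adjusted p = 1).

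Markers of the cells known to make properdin were measured beside it. The summed neutrophil markers (7 of 8 measured) ran from 154.5 to 247.8 normalized counts in WT PBS, 535.5 to 1232 in WT glycerol, 41.27 to 64.51 in C3-/- PBS and 77.86 to 246.1 in C3-/- glycerol kidney. The summed 8 macrophage markers ran from 2752 to 3042, 2724 to 3170, 2815 to 3906 and 2562 to 4412 normalized counts in the same order. The flat WT sum hides opposed changes, since 3 of the 8 were called higher and 1 lower after glycerol in WT kidney (limma). Of all tested genes 12.5% were called higher and 13.3% lower there. Csf1r, the largest part of the sum, had a mean of 1809 in WT PBS and 974.8 in WT glycerol, and Cd68 had 70.47 and 535.5. After glycerol 3 of the 8 were lower and 1 higher in C3-/- than in WT kidney, where 4.85% and 6.38% of all tested genes were. In C3-/- glycerol kidney the 2 list 2 libraries, which had the high Cfp values, had 4153 and 4412 macrophage marker counts against 2562 and 3312 in list 1. Neutrophil markers did not split that way, with 77.86 and 155.6 in list 2 against 79.32 and 246.1 in list 1. In whole tissue, a change in the number of cells and a change in RNA per cell cannot be told apart, here and for each gene below, and the part of these markers in the Cfp values was not tested.

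Factor I degrades C3b. Cfi (ENSMUSG00000058952) lies on the plus strand of chromosome 3, 129835884 to 129875332. It had 168.4, 146.6, 165.1 and 184.6 normalized counts in WT PBS replicates 1 to 4 and 296.9, 97.8, 294.1 and 117.8 in WT glycerol. Cfi in C3-/- PBS had 118, 112.1, 102 and 98.5 normalized counts, and in C3-/- glycerol 88.8, 120.5, 65 and 114.3. After PBS every C3-/- value of Cfi lay below every WT value, as was so for 13.1% of tested genes, while WT glycerol replicates split into a high and a low pair.

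The PBS difference of Cfi between genotypes (C3-/- minus WT) was -0.62 ± 0.33 on the log2 scale and did not pass the test in the fit of all groups (limma adjusted p = 0.606). Fitted on the PBS groups alone its limma adjusted p was 0.00467, and over the alternatives it ran from 0.00467 to 0.921. After glycerol the difference of Cfi was -0.91 ± 0.33 (limma adjusted p = 0.0975), and it passed the test without WT glycerol replicate 2 (-1.19, limma adjusted p = 0.03) or replicate 4 (-1.11, limma adjusted p = 0.029), with a range of 0.029 to 0.446 over the alternatives. Glycerol against PBS gave log2 differences for Cfi of 0.11 ± 0.33 in WT and -0.18 ± 0.33 in C3-/- kidney (limma adjusted p = 0.839 and 0.73).

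C5 is the protein whose cleavage starts the terminal pathway. Its gene Hc (ENSMUSG00000026874) lies on the minus strand of chromosome 2, 34983331 to 35061438, with the antisense gene Gm13449 inside it, so reads of the pair cannot be told apart without strand. Hc was listed at 0, 0.9, 0 and 20.8 normalized counts in WT PBS replicates 1 to 4 and at 18.3, 73.3, 33.8 and 13.2 in WT glycerol. Hc in C3-/- PBS had 10.2, 0.5, 4.6 and 35.7 normalized counts, and in C3-/- glycerol 3.5, 4.2, 0.9 and 14.6. WT PBS replicate 4, at 20.8, overlapped the WT glycerol range, and the 2 ranges of the C3-/- groups overlapped as well.

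The rise of Hc after glycerol in WT kidney was 3.51 ± 1.08 (SE) on the log2(value + 1) scale, 11.4-fold, with a limma adjusted p of 0.0263. The size of that change depended on the pseudocount and on single libraries, since WT PBS values of Hc lay at or near 0 in 3 of 4 libraries. It was 1.71 ± 0.55 with a pseudocount of 8 and 4.54 ± 0.97 without WT PBS replicate 4 (limma adjusted p = 0.0327 and 0.0054). The call was lost without any one of WT PBS replicates 1, 2 and 3 or WT glycerol replicate 2, with limma adjusted p between 0.0648 and 0.082, and over all alternatives that p ran from 0.0054 to 0.082. In C3-/- kidney the glycerol difference of Hc was -0.58 ± 1.08 (limma adjusted p = 0.735). Between genotypes (C3-/- minus WT) the difference of Hc was -2.5 ± 1.08 after glycerol and 1.59 ± 1.08 after PBS (limma adjusted p = 0.162 and 0.797).

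C6 is the first protein to bind cleaved C5. Its gene (ENSMUSG00000022181) lies on the plus strand of chromosome 15, 4727175 to 4814967, and ends 173.8 kb from C7 on the same chromosome. C6 had 0.9, 5.7, 6.6 and 6.8 normalized counts in WT PBS replicates 1 to 4 and 7.1, 4.8, 6 and 37.1 in WT glycerol. C6 in C3-/- PBS had 3, 2.5, 2.3 and 13.4 normalized counts, and in C3-/- glycerol 6.4, 2.5, 8.2 and 6.3. All 4 groups overlapped, and only WT glycerol replicate 4 and C3-/- PBS replicate 4 reached 10 normalized counts.

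C6 was therefore tested apart from the other genes, with a two-sided exact permutation test of the group means of log2(normalized count + 1), whose smallest possible p with 4 against 4 libraries is 0.0286. The log2 difference of C6 between glycerol and PBS was 1.01 in WT (exact p = 0.4) and 0.35 in C3-/- kidney (exact p = 0.543). Between genotypes (C3-/- minus WT) it was -0.72 after glycerol (exact p = 0.486) and -0.05 after PBS (exact p = 0.857). Adjusted over the 4 tests the exact p-values were 0.724, 0.724, 0.724 and 0.857. With so few libraries and 4 tests, a difference of C6 in 1 comparison alone could not have passed 0.05 after adjustment.

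C7 joins C5b and C6 and lets the complex attach to a membrane. The gene (ENSMUSG00000079105) lies on the minus strand of chromosome 15, 4988762 to 5063740. It is one of the genes that carry the genotype difference here, so the 250 bases before its RefSeq start are shown, from the RefSeq promoter table of GRCm38.p6 (chr15:5063774-5064023, minus strand, 5′ to 3′). That start lies 33 bases upstream of the gene start in the coordinates above, 5063740. Capitals mark the matches to 7 searched motifs, here a GAS motif (TTCNNNGAA) whose first base is at -164 and a reverse TATAAA at -6 from the RefSeq start:
C7: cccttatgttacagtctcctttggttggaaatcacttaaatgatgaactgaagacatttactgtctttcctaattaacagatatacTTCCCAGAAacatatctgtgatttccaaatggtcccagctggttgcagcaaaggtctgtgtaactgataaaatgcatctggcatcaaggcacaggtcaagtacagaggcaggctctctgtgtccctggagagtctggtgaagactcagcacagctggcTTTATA

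C7 had 137, 161.9, 220 and 135.5 normalized counts in WT PBS replicates 1 to 4 and 204.9, 140, 208.5 and 203.4 in WT glycerol. C7 in C3-/- PBS had 13.5, 29.6, 21.6 and 27 normalized counts, and in C3-/- glycerol 66.3, 54.1, 51.5 and 111.6. The 8 C3-/- values all lay below the 8 WT values, and within C3-/- every glycerol value lay above every PBS value, while the WT ranges overlapped.

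C7 was 7.01-fold lower in C3-/- than in WT kidney after PBS (log2 difference -2.81 ± 0.30 SE, limma adjusted p = 4.91e-05), and over the alternatives the difference stayed between -2.94 and -2.48 with adjusted p of at most 0.000756. After glycerol it was 2.74-fold lower (-1.46 ± 0.30, limma adjusted p = 0.00549), and the call was lost when the 2 groups were fitted alone (limma adjusted p = 0.0791, range over the alternatives 0.00201 to 0.0791). Within C3-/- kidney C7 rose 2.97-fold after glycerol (1.57 ± 0.30, limma adjusted p = 0.00662), and that call too was lost in the fit of the 2 groups alone (limma adjusted p = 0.0725, range 0.00322 to 0.0725). In WT kidney the glycerol difference of C7 was 0.22 ± 0.30 (limma adjusted p = 0.616). The share of tested genes whose values did not overlap, in the direction of C7, was 13.1% after PBS between genotypes, 5.07% after glycerol between genotypes and 9.53% after glycerol in C3-/- kidney.

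The 3 C3-/- libraries with Y-linked transcripts had 27, 51.5 and 111.6 normalized counts of C7, all below the lowest WT value of 135.5, and with list and Y-linked transcripts as covariates the PBS difference of C7 was -2.54 (limma adjusted p = 0.000756). The summed markers of fibroblasts and pericytes were also lower in C3-/- than in WT kidney, without overlap after either injection. These 8 genes ran from 5344 to 10030 normalized counts in WT PBS, 9097 to 17730 in WT glycerol, 3362 to 4602 in C3-/- PBS and 3032 to 6414 in C3-/- glycerol kidney. The collagen genes Col3a1, Col1a2 and Col1a1 were its largest parts in WT glycerol, at means of 5484, 2463 and 2287. The sum hides opposed changes, since 2 of the 8 were called higher and 2 lower after glycerol in WT kidney (limma). After glycerol Dcn had means of 513.3 in C3-/- and 568.5 in WT kidney, and Lum 50.22 and 39.1. Of these 8 genes, 5 were lower in C3-/- than in WT kidney after glycerol, where 4.85% of all tested genes were. Col3a1 was among them at -2.93 ± 0.39 (log2, limma adjusted p = 0.000227). After PBS none of the 8 passed limma's test and 5 of them had an unadjusted p under 0.05, with Col3a1 at -1.23 ± 0.39 (limma adjusted p = 0.156). An unadjusted p under 0.05 was found there for 10.4% of all tested genes, in either direction. Within C3-/- kidney the summed marker ranges of glycerol and PBS overlapped, where those of C7 did not. The part of these markers in the C7 values was not tested.

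C8a encodes the alpha chain of C8, the subunit that first inserts into the membrane. The gene (ENSMUSG00000035031) lies on the minus strand of chromosome 4, 104815679 to 104876398, with Gm17662 on the opposite strand inside it. The 250 bases before its RefSeq start (GRCm38.p6, chr4:104876399-104876648, minus strand, 5′ to 3′) are shown because this is the gene that fell after glycerol in WT kidney. Capitals mark the single match, a GAS motif at -228:
C8a: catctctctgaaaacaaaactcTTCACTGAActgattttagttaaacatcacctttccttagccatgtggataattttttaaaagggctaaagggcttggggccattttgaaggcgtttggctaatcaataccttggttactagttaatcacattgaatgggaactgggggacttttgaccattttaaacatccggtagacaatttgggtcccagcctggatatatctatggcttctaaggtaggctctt

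The motifs were searched on both strands in the 5 of 7 members with an entry in that table. TATAAA was found in 12.4% of 32851 such windows, the AP-1 motif TGANTCA in 6.75%, the GAS motif TTCNNNGAA in 7.02% and the C/EBP motif TTGCNNAA in 9.56%. The HNF1 motif, GTTAAT and TTAAC with any 2 bases between, was found in 0.0335% of windows, the kappaB motif, GGGA and CC with any 4 bases between, in 17.6% and CCAAT in 33.8%. Cfp and C6 held none of the 7, and Hc held a TATAAA at -239. A match describes letters and is no measured site.

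C8a had 563.1, 622.5, 615 and 542.3 normalized counts in WT PBS replicates 1 to 4 and 48.8, 47.1, 118.5 and 198.6 in WT glycerol. C8a in C3-/- PBS had 645.3, 567.2, 696.6 and 697.5 normalized counts, and in C3-/- glycerol 1972.6, 410.7, 2350.1 and 345.4. Every WT glycerol value lay below every other library. In C3-/- glycerol the 2 list 2 libraries lay above the C3-/- PBS range and the 2 list 1 libraries lay below it, and the share of all genes split so was not computed.

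C8a fell 6.74-fold after glycerol in WT kidney (log2 difference -2.75 ± 0.57 SE, limma adjusted p = 0.00291), lower in 4 of 4 libraries as was so for 22.4% of tested genes. Over the alternatives the difference stayed between -3.28 and -2.47 with adjusted p of at most 0.0124. In C3-/- kidney the glycerol difference of C8a was 0.47 ± 0.57 over all libraries (limma adjusted p = 0.593) and -0.78 within list 1 (limma adjusted p = 0.0642), so its sign depended on the list 2 libraries. After glycerol C8a was 10.4-fold higher in C3-/- than in WT kidney (3.38 ± 0.57, limma adjusted p = 0.00152), in 4 of 4 libraries as was so for 6.21% of tested genes. Within list 1 that difference of C8a was 2.52 (limma adjusted p = 0.000113), and in the fit of the 2 groups alone the call was lost (limma adjusted p = 0.0684, range over the alternatives 1.69e-05 to 0.0684). After PBS the genotype difference of C8a was 0.15 ± 0.57 (limma adjusted p = 1).

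Proximal tubule markers fell in the same WT comparison. Their summed 10 genes ran from 1003000 to 1109000 normalized counts in WT PBS, 208800 to 463500 in WT glycerol, 435800 to 1041000 in C3-/- PBS and 116100 to 784200 in C3-/- glycerol kidney. Most of the WT PBS sum came from a single gene, Kap, at a mean of 713000 normalized counts. In C3-/- PBS the sum was 1041000 in the library with Y-linked transcripts and 435800 to 540400 in the others. Whether the sum follows proximal tubule content was not tested. In WT kidney 7 of the 10 fell after glycerol, Slc34a1 among them at -2.80 ± 0.59 (log2, limma adjusted p = 0.00328), and in C3-/- kidney 1 of the 10 did. Of all tested genes 13.3% were called lower in WT, and 5.63% were called in either direction in C3-/- kidney. Between the genotypes after glycerol none of the 10 passed limma's test and 4 had an unadjusted p under 0.05, with Slc34a1 at 1.29 ± 0.59 (limma adjusted p = 0.196), where C8a passed. An unadjusted p under 0.05 was found there for 24.6% of all tested genes, in either direction. In list 1 the C3-/- glycerol sums were 168500, in a library without Y-linked transcripts, and 244700. They lay within or under the WT glycerol range of 208800 to 463500, while C8a was 410.7 and 345.4 against at most 118.5 normalized counts. Kap was on average the largest part of these sums too, with means of 290600 in WT and 165700 in C3-/- glycerol kidney. Over all libraries after glycerol, the median log2 difference of the 10 genes (C3-/- minus WT) was 0.47, against 0.04 for all tested genes. Markers of later tubule segments differed in the same direction as C8a. Of 7 genes of the thick ascending limb and distal tubule, 5 fell after glycerol in WT kidney, and 4 were higher in C3-/- than in WT kidney after glycerol, Slc12a1 among them at 2.82 ± 0.31 (log2, limma adjusted p = 3.46e-05). Of 6 collecting duct genes, 3 fell in WT and 4 were higher in C3-/- kidney after glycerol, Aqp2 among them at 1.25 ± 0.32 (log2, limma adjusted p = 0.0196). For both lists the shares of all tested genes were 13.3% lower in WT and 6.38% higher in C3-/- kidney after glycerol. The summed collecting duct markers ran from 13670 to 16560 normalized counts in WT PBS, 5850 to 9093 in WT glycerol, 16080 to 25350 in C3-/- PBS and 10390 to 18470 in C3-/- glycerol kidney. Those of the thick ascending limb and distal tubule ran from 307800 to 344700, 49570 to 154700, 289000 to 347000 and 105400 to 338400 in the same order. In C3-/- glycerol the list 2 libraries, with the highest C8a, had 105400 and 169300 of these, below the 245400 and 338400 of list 1. The part of the tubule markers in the C8a values was not tested.

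**Figure D3:**
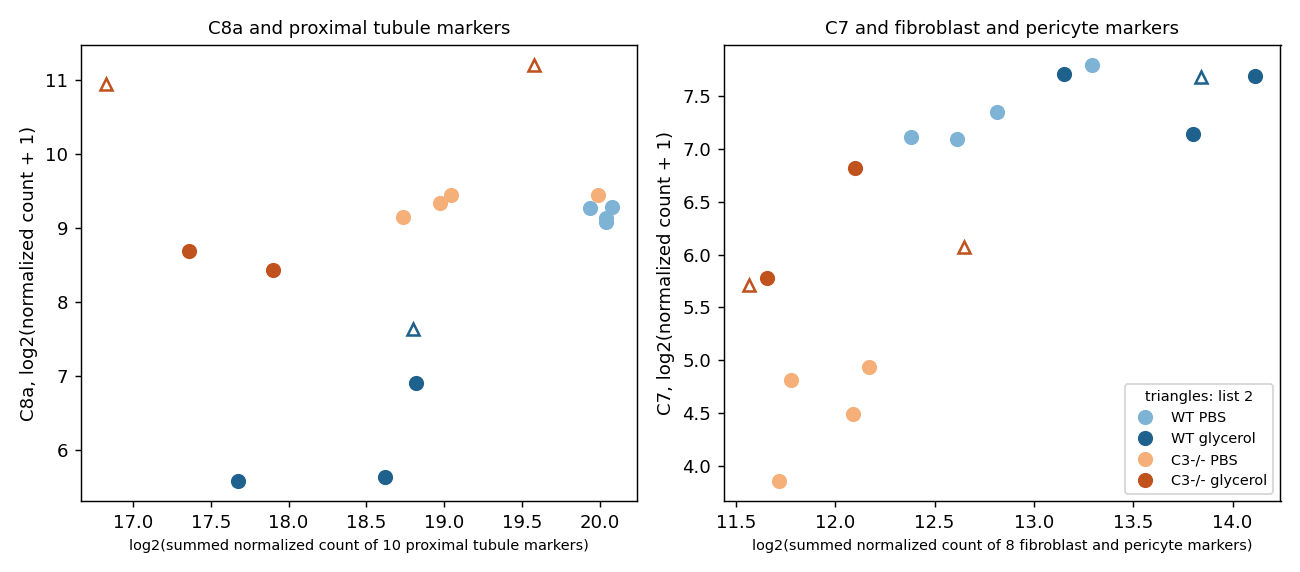
Left, C8a against the summed 10 proximal tubule markers, and right, C7 against the summed 8 fibroblast and pericyte markers, each point a library, both axes log2 and groups by colour. Kap held most of the proximal tubule sum in WT PBS, at a mean of 713000 normalized counts. In the left panel the WT glycerol libraries are the lowest in C8a, while their marker sums (208800 to 463500) overlap those of C3-/- libraries, and in the right panel the C3-/- libraries are the lowest in C7, and 1 of them, at 6414 marker counts, lies above the lowest WT PBS library at 5344.

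Whether the glycerol response differed between genotypes was tested as the interaction, the C3-/- response minus the WT response. None of the 6 genes passed (limma, where 0.438% of all genes did), and 3 of the 6 had an unadjusted p under 0.05, where 10.5% of all genes did. These were C8a (3.22 ± 0.81 SE, limma adjusted p = 0.106), C7 (1.35 ± 0.43, limma adjusted p = 0.208) and Hc (-4.09 ± 1.53, limma adjusted p = 0.319). Within list 1 the interaction passed for C8a (2.37 ± 0.38, limma adjusted p = 0.00378) and C7 (1.60 ± 0.46, limma adjusted p = 0.0469), where 10.3% of all genes did. With the covariates it passed for C8a (2.68 ± 0.37, limma adjusted p = 0.000949), where 8.76% of all genes did. It also passed for C8a without WT glycerol replicate 4 (3.62, limma adjusted p = 0.0392) or C3-/- glycerol replicate 4 (3.68, limma adjusted p = 0.0474). Over the alternatives the adjusted p ran from 0.000949 to 0.218 for C8a and from 0.0469 to 0.392 for C7. The interaction was 0.5 ± 0.77 for Cfb, -0.5 ± 0.96 for Cfp and -0.29 ± 0.47 for Cfi, with limma adjusted p of 0.952, 0.971 and 0.959.

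**Figure D4:**
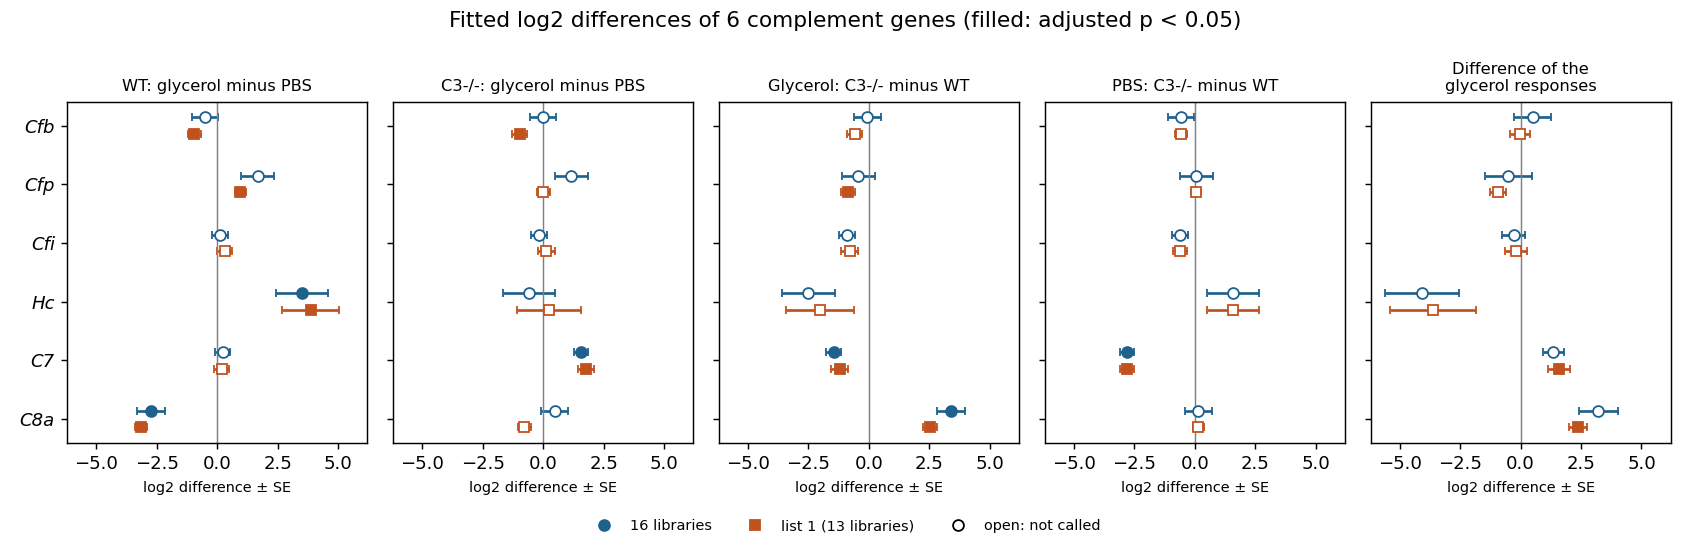
Log2 difference with its SE on the horizontal axis for the 6 tested genes in the 5 contrasts; blue circles are all 16 libraries, orange squares are the 13 list 1 libraries, and filled symbols have a limma adjusted p below 0.05. Cfb and Cfp are filled after glycerol in WT kidney in list 1 only, and C8a changes sign between the fits after glycerol in C3-/- kidney.

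The authors' deposited tables give their own values for 3 of these comparisons. For WT glycerol against PBS, the authors' deposited table lists C8a at a log2 fold change of -2.68 (SE 0.56, adjusted p = 2.52e-05), Cfp at 2.32 (SE 0.68, adjusted p = 0.004) and Hc at 2.7 (SE 1.2, adjusted p = 0.0757). Cfp thus passes 0.05 in the authors' deposited table and Hc does not, the reverse of the limma fit. For glycerol C3-/- against WT, the authors' deposited table lists C8a at 3.8 (SE 0.56, adjusted p = 1.38e-09), C7 at -1.41 (SE 0.3, adjusted p = 8.31e-05) and Cfi at -1.1 (SE 0.34, adjusted p = 0.0105). For C3-/- glycerol against PBS, the authors' deposited table lists C7 at 1.64 (SE 0.33, adjusted p = 2.81e-05) and no other member under 0.05.

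Of 23 other genes listed for the alternative and terminal pathways, 17 were measured and 14 tested. In WT kidney 4 rose and 2 fell after glycerol (limma), where 12.5% of all tested genes were called higher and 13.3% lower. The 4 that rose were C3, the substrate of the pathway (2.94 ± 0.48 SE on the log2 scale, adjusted p = 0.000527), Clu, an inhibitor of the terminal complex (3.43 ± 0.59, adjusted p = 0.00079), C5ar1, a receptor of the C5a fragment (2.23 ± 0.37, adjusted p = 0.000592), and Cpb2, a carboxypeptidase that inactivates C5a (2.77 ± 0.53, adjusted p = 0.00153). The 2 that fell both encode membrane regulators of C3b or of the enzyme that makes it, Cd55 (-0.58 ± 0.2, adjusted p = 0.041) and Cd46 (-0.79 ± 0.18, adjusted p = 0.00453). C8g, the gamma chain partner of C8a, was at -1.25 ± 0.47 and did not pass (limma adjusted p = 0.0628), with 60.97 to 206.1 normalized counts after glycerol against 211.5 to 267.4 after PBS.

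In C3-/- kidney 2 of the 14 rose after glycerol, C3 (1.95 ± 0.48, limma adjusted p = 0.0268) and C5ar1 (1.34 ± 0.37, limma adjusted p = 0.0467), and 12 did not pass. Of all tested genes 3.68% were called higher there. Between the genotypes after glycerol, where 4.85% of all tested genes were called lower in C3-/- kidney, 5 of the 14 were lower (limma). They were Clu (-3.41 ± 0.59, adjusted p = 0.00171), C5ar1 (-2.12 ± 0.37, adjusted p = 0.00171), the second C5a receptor C5ar2 (-3.33 ± 0.54, adjusted p = 0.00114), the carboxypeptidase subunit Cpn1 (-3.62 ± 0.59, adjusted p = 0.00108) and the lectin pathway protease Masp1 (-1.28 ± 0.3, adjusted p = 0.0112). After PBS, where 1.19% of all tested genes were called lower, 2 of the 14 were lower, C5ar2 (-2.84 ± 0.54, limma adjusted p = 0.0102) and Cpn1 (-2.94 ± 0.59, limma adjusted p = 0.0132). No listed gene was higher in C3-/- kidney by limma, with 1 after glycerol and 3 after PBS at an unadjusted p under 0.05. At that p 7 were lower after glycerol and 7 after PBS, where 24.6% and 10.4% of all genes passed it in either direction. C8a thus differed in direction after glycerol from the 5 other genes called between the genotypes, and C7 shared it.

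The genes whose pattern was most like each member were taken by Pearson's r of log2(normalized count + 1) over the 16 libraries, which share group, list and scaling, among tested genes with a mean of at least 50. For C8a they were Emx1 (r = 0.97), Rab3a (0.97) and Gamt (0.96), and for Cfb Cyba (0.97), Akr1a1 (0.96) and Cyp2j9 (0.96). Dlgap4, Lcat and Pkp3 were most like Cfp, each at r = 0.98. For Cfi they were Ptpra (0.91), Zfp991 (0.88) and Stk38l (0.84), and for Hc Siah1b (0.83), G3bp1 (0.79) and Hp (0.79). For C7 they were Rpe (0.92), Cndp2 (0.91) and Ywhaz (0.89), and with group means removed these were 0.64, 0.33 and 0.47, whereas those of Cfb were each 0.98.

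Among the members themselves, the pattern within groups differed from that across them. Cfb and C8a had r = 0.44 over the 16 libraries and 0.85 with group means removed, and Cfp and C8a had -0.03 and 0.77. The list 2 libraries of C3-/- glycerol held the highest values of C8a, Cfp and Cfb in that group, and in WT glycerol the list 2 library did so too. C7 and Cfi had r = 0.58 and 0.27 with group means removed, and C6 and C7, neighbours on chromosome 15, had 0.33 and 0.32.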

How the data were processed

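Kidney RNA of 16 libraries was compared in 4 groups of 4, taken from the sample titles. Each deposited value is a signal, a read count per gene that the authors normalized with DESeq2. The submitters' processing notes name STAR 2.7.1, R 3.6.1, DESeq2 and GRCm38, and gene models were of Ensembl release 96 per the file headers. The read counter and its strand setting were not found in these sources. At most 11.4% of a library's values came out whole on a common step (tolerance 0.01), so reads were not recovered, depth is unknown and count models were not used. The authors also deposited 3 tables of comparisons with log2 fold changes, standard errors, a test score per gene (the Wald statistic, not used here) and p-values.

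The test was limma 3.58.1 (R 4.3.3) on log2(normalized count + 1) (mean-variance trend, two-sided, all groups in 1 fit), on the 18035 genes with at least 10 in at least 4 libraries. A pseudocount of 1 understates the change of low genes. The fit was tested on simulated data. Replicate numbers did not pair the libraries. Alternatives were a pseudocount of 8, no filter, quantile normalization, list 1 alone, list and Y-linked transcripts as covariates, the 2 groups alone, a replicate block, and each library left out in turn. Exon lengths came from GENCODE on GRCm38 and promoters from RefSeq. All members were named, with each other pathway gene called and the 3 genes most like each tested member. A gene of the pathway lists is not reported here. The members, lists and tests were chosen with earlier results of these data known.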

Additional observations from a re-analysis of the deposited data

Results flagged for a closer look

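In 28 groups of 4 values, 1 for each gene and group, 5 held a library that stood apart from the other 3 by Dixon's criterion (the gap to the nearest library as a share of the range). For normally spread values chance gives about 1 in 20. The criterion was applied to normalized counts and not to their logs, and C6 and Hc lie near 0. The 5 are therefore not compared with that rate. WT glycerol replicate 4, a list 2 library with 3374 genes listed at 0, was the highest of its group for Cfp at 908.6 and for C6 at 37.1 normalized counts. C3-/- PBS replicate 4, the library of its group with Y-linked transcripts, was the highest for C6 at 13.4 normalized counts. WT PBS replicate 4 was the highest for Hc at 20.8 normalized counts. WT glycerol replicate 2 was the lowest for C7 at 140.0 normalized counts, which was inside the WT PBS range.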

How the results depend on the processing

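Over the 6 tested genes and 5 contrasts, 178 values kept their direction and their side of the threshold under the alternatives other than leaving out a library, 13 newly passed it, 3 no longer did and 10 changed sign. Within list 1, 4 members were called in WT, 2 in C3-/- and 2 in the interaction, and with covariates 4, 2 and 1. With the 2 groups alone, 0 were called after glycerol in C3-/- kidney, 0 between genotypes after glycerol and 3 after PBS. Leaving out 1 library gave 1 to 3 members in WT and 0 to 1 in the interaction. Over all genes, 4666, 1016, 2025, 402 and 79 were called (WT, C3-/-, glycerol genotypes, PBS genotypes, interaction). Within list 1 these were 10028, 4142, 5432, 3481 and 1858, and with covariates 8886, 3393, 6068, 628 and 1580. The 2 groups alone gave 308, 297 and 4619 in C3-/-, between genotypes after glycerol and after PBS, and a pseudocount of 8 gave 141 in the interaction. Leaving out 1 library gave 492 to 1595, 1385 to 4396, 220 to 549 and 38 to 225 from C3-/- onward. Without WT glycerol replicate 4 the glycerol genotype contrast called 4396. Same-numbered libraries had correlated deviations in 4 of 24 pairs over 0.1 (r from -0.69 to 0.38), and 3 of 16 libraries correlated best with their own number. The replicate block called 632 in C3-/- and 41 in the interaction and changed no call of a member. The sign turned after glycerol in C3-/- within list 1 for Cfi (0.13), Hc (0.23) and C8a (-0.78), and with covariates for Cfp (-0.07), Cfi (0.22) and C8a (-0.60). With covariates it turned after PBS for Cfb (0.09) and Cfp (-0.06) and in the interaction for Cfb (-0.17, and -0.02 within list 1). Leaving out 1 library gave both signs for Cfi in WT (-0.14 to 0.39), Cfb (-0.62 to 0.35) and Hc (-1.37 to 0.17) in C3-/-, Cfb (-0.65 to 0.37) and Cfp (-0.98 to 0.29) between genotypes after glycerol, Cfp after PBS (-0.06 to 0.17), and Cfb (-0.1 to 0.92) and Cfp (-1.04 to 0.23) in the interaction. None of these values was past the threshold, and the cause was not tested. List 2 holds no PBS library, so list and injury cannot be fully told apart. Depth is unknown, and C6 and Hc lie near 0.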
